A study of Arabidopsis thaliana with 4 samples.

Results

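Transcripts of the mitochondrial genome were described in whole *Arabidopsis thaliana* Col0 seedlings that had been exposed, or not, to the volatiles of a bacterium. The loci were chosen by name alone, as every array probe whose systematic name gives ATMG and a locus number, without control spots. This gave 67 of the 29030 loci on the array, and 74 of its 43603 probes. Both groups were whole seedlings of 7 days, roots and shoots together. The exposed group (mVOC) had shared the air of a divided dish with *Erwinia amylovora*, the fire blight bacterium, for 16 h, and the control group had no bacterium. Each of 4 biological replicates was 1 two-colour Agilent array, with the mVOC sample in the red dye (Cy5) and the control sample in the green dye (Cy3). The age is that given in the results of the paper that reported the data, and the exposure that of its methods. The labels do not say how many seedlings were pooled in a sample. The free-text description attached to all 4 arrays speaks of stem cells kept in culture, which goes against the organism, organ, agent and growth fields, and nothing was taken from it.

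Plant mitochondria keep a small genome of their own. According to RefSeq (assembly TAIR10.1) its 33 protein-coding genes include subunits of complex I (the *nad* genes), cytochrome b of complex III (*cob*), subunits of cytochrome c oxidase (*cox1* to *cox3*) and of ATP synthase (*atp1*, *atp4*, *atp6*, *atp8*, *atp9*), ribosomal proteins, and factors that attach haem to cytochrome c (the *ccm* genes). The other subunits of these complexes, and the enzymes that transcribe, splice and edit the organelle's RNA, are encoded in the nucleus and imported. RNA levels in plant mitochondria are set to a large degree after transcription, and most of the mature transcripts carry no stable poly(A) tail. The labels describe a primer of the oligo(dT) type for the labelling reaction, and the methods a different reaction, so how fully such transcripts were labelled is not known here and was not tested. Because the array gives ATMG numbers, which no table used here pairs with gene names, the loci below carry their numbers only, and no function is given to any of them. A copy of much of the mitochondrial genome lies in nuclear chromosome 2, so a probe for one may also bind RNA of the other. Probe sequences were not analysed here.

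On each array 43803 of 45220 spots were not controls, and 74.6% to 78.8% of them were well above background in the mVOC channel, against 74.2% to 76.4% in the control channel. Saturated spots numbered 0. Replicates 1 and 2 shared slide 1 and replicates 3 and 4 shared slide 2. On replicate 4, 8 spots had a local background over 100, and log2 ratios there had a SD over loci of 0.103, against 0.147 to 0.174 on the other arrays. With spots of uneven background left out, that SD was 0.157. All 5 shoot markers and all 5 root markers were above background in all 8 readings. After normalization, 3 of the 5 shoot markers were called higher in mVOC seedlings (median log2 ratio 0.12), against 9.33% of all loci, and 1 had a mean below 0 (-0.015). Of the 5 root markers 1 was called lower (median -0.11), against 7.96% of all loci, and all 5 had a mean below 0. The summed intensity of the shoot markers, net of background and not normalised, ranged from 791757 to 971773 in the mVOC channel, against 352128 to 433963 in the control channel. That of the root markers ranged from 97315 to 126771 in the mVOC channel, against 61041 to 79622 in the control channel. Both sums were higher in the mVOC channel, and they set one dye against the other before normalization, so they give no size for a change in marker RNA. Whether the share of shoot and root RNA differed between the groups, and its part in the mitochondrial values, was not tested. In bulk seedlings fewer cells of a type and less RNA per cell cannot be told apart.

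Exposure went with small differences at a minority of the mitochondrial loci, more often lower than higher. After background correction and loess normalization, the log2 ratio of mVOC over control was tested against 0 with limma over all loci, with Benjamini-Hochberg adjustment. Ratios are means ± SD over the 4 arrays (n = 4). Of the 67 loci, 17 had an adjusted p below 0.05 (25.4%), against 17.3% of all loci. Higher in mVOC were 5 (7.46%), against 9.33% of all loci, and lower were 12 (17.9%), against 7.96% of all loci. Dim loci enter these shares, since 5757 of the 29030 loci and 4 of the 67 were above background in no reading. With loci above background on fewer than 2 arrays left out, 9.68% were higher and 19.4% lower, against 12.9% and 11% of all loci kept. With arrays centred on the median in place of loess the split was 13 higher (19.4%) and 19 lower (28.4%), against 20.7% and 21.3% of all loci, so that the shares lay nearer to those of all loci than after loess. Every mVOC sample was labelled with Cy5, so an effect of the dye and an effect of the exposure cannot be told apart for any locus.

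The mean log2 ratios of the loci ran from -0.43 to 0.28, with a median of -0.046 and quartiles of -0.096 and 0.030, whereas the median of all loci was 0.0029. Loci that reached a 2-fold difference numbered 0. The median over the loci was -0.066, -0.036, -0.025 and -0.0086 on the arrays of replicates 1 to 4, below 0 on each. On replicate 4 it was -0.049 once spots of uneven background were left out. A mean below 0 was found for 43 loci and above 0 for 24. On all 4 arrays 23 loci (34.3%) were lower, against 19.4% of all loci, and 10 (14.9%) were higher, against 21.5% of all loci. As normalised intensities, the 4 mVOC samples lay wholly below the 4 control samples at 13 loci (19.4%), against 7.45% of all loci, and wholly above them at 4 loci (5.97%), against 8.09% of all loci. Between arrays, the ratios correlated across the 67 loci with r of 0.588 to 0.746, and across all loci with r of 0.455 to 0.711. For replicates 3 and 4 these were 0.704 and 0.711. The loci share the same 4 pairs of libraries, and all arrays have the same dye order.

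**Figure D1:**
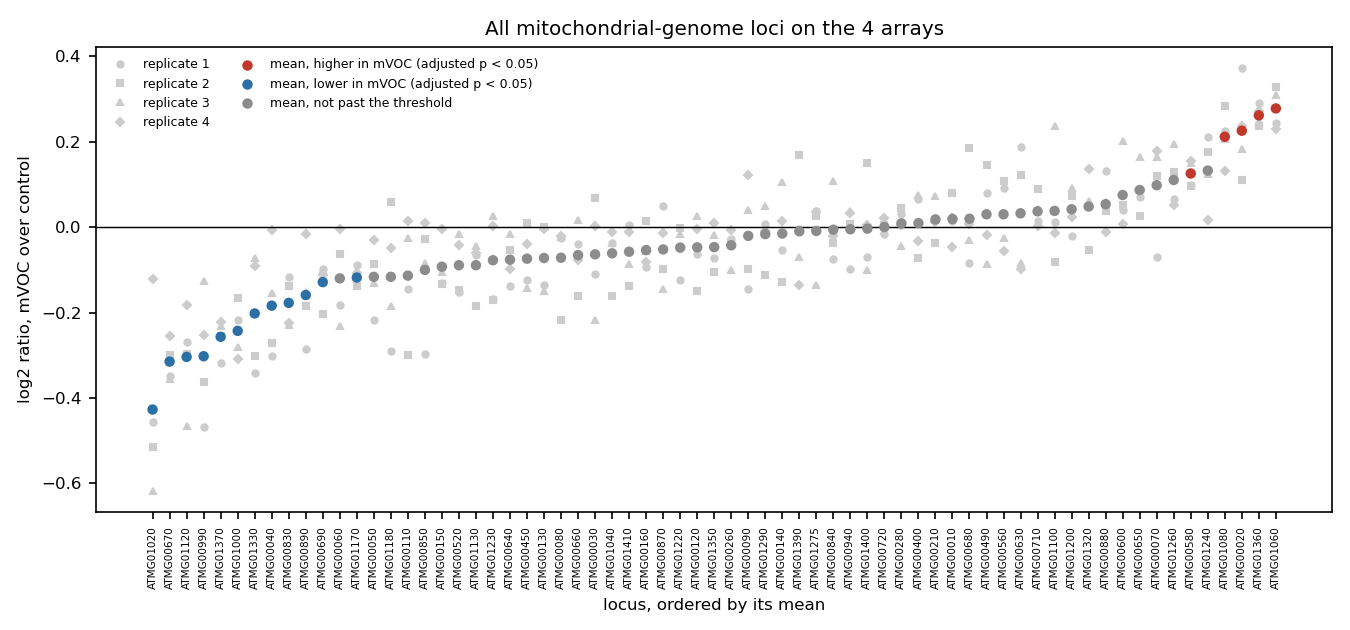
Log2 ratio of mVOC over control (y axis) for all 67 mitochondrial-genome loci (x axis, ordered by their mean). Grey symbols are the 4 arrays and filled circles the means, red for the 5 loci called higher in mVOC and blue for the 12 called lower. The means run from -0.43 to 0.28, and most of the filled circles in grey lie close to 0.

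Called higher were ATMG01060, ATMG01360, ATMG00020, ATMG01080 and ATMG00580. ATMG01060 had a normalised log2 intensity of 9.33, 9.44, 9.49 and 9.45 in the mVOC samples of replicates 1 to 4, against 9.09, 9.11, 9.18 and 9.22 in the control samples. Every mVOC sample lay above every control sample. The mean log2 ratio was 0.28 ± 0.049, or 1.21-fold, with an adjusted p of 0.00148, the highest ratio of the 67 in this setting. On replicate 4 the ratio was 0.23, and 0.35 with spots of uneven background left out. ATMG01360 had 12.35, 12.47, 12.32 and 12.43 in the mVOC samples, against 12.06, 12.23, 12.07 and 12.16 in the control samples. The groups were again apart, and the ratio of 0.26 ± 0.025 (1.20-fold, adjusted p = 0.00156) varied little between arrays, from 0.24 to 0.29.

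ATMG00020 had 14.65, 14.53, 14.58 and 14.60 in the mVOC samples, against 14.27, 14.42, 14.39 and 14.36 in the control samples. The groups did not overlap, although the ratio differed more between arrays, with 0.37 on replicate 1 and 0.11 on replicate 2. The mean log2 ratio was 0.23 ± 0.11 (1.17-fold, adjusted p = 0.00931), and with the ratio of the scanner software it was 0.082 (adjusted p = 0.246). ATMG01080 had 12.78, 12.45, 12.79 and 12.67 in the mVOC samples, against 12.56, 12.16, 12.59 and 12.53 in the control samples. Here the groups overlapped, since both samples of replicate 2 were low, and the array pairs gave a log2 ratio of 0.21 ± 0.063 (1.16-fold, adjusted p = 0.00609). ATMG00580 had 13.60, 13.49, 13.65 and 13.66 in the mVOC samples, against 13.50, 13.39, 13.50 and 13.50 in the control samples. The groups overlapped through replicate 2, and the log2 ratio of 0.13 ± 0.031 (1.09-fold, adjusted p = 0.0396) lost its call without any 1 replicate, with an adjusted p of 0.0676 to 0.153. The size of these ratios depended on the normalization, since with arrays centred on the median the log2 ratio was 0.63 for ATMG00020, 0.46 for ATMG01360, 0.44 for ATMG00580, 0.43 for ATMG01080 and 0.34 for ATMG01060.

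The 12 loci called lower had mean log2 ratios of -0.43 to -0.12. The 10 with the greatest fall are given here, and ATMG00690 (-0.13 ± 0.050, adjusted p = 0.0426) and ATMG01170 (-0.12 ± 0.024, adjusted p = 0.0488), outside that naming rule, were the other two. ATMG01020 had a normalised log2 intensity of 7.69, 7.75, 7.56 and 7.89 in the mVOC samples, against 8.15, 8.27, 8.18 and 8.01 in the control samples. The groups were apart, with the pair of replicate 4 the closest. The log2 ratio of -0.43 ± 0.21 (0.744-fold, adjusted p = 0.00292) was the lowest of the 67. On replicate 4 the ratio was -0.12, and -0.50 with spots of uneven background left out. With the ratio of the scanner software the mean was -0.76.

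ATMG00670 had 9.31, 9.39, 9.45 and 9.35 in the mVOC samples, against 9.65, 9.69, 9.80 and 9.61 in the control samples. Its groups were apart, and the log2 ratio of -0.31 ± 0.047 (0.804-fold) had the smallest adjusted p of the 67 in this setting, 0.000852. Its arrays were close to each other here, with -0.26 on replicate 4. With spots of uneven background left out, replicate 4 had -0.47, the furthest from 0, against -0.35, -0.30 and -0.36 on replicates 1 to 3. ATMG01120 had 9.47, 9.47, 9.29 and 9.48 in the mVOC samples, against 9.74, 9.77, 9.76 and 9.66 in the control samples, again apart. Its log2 ratio was -0.30 ± 0.12 (0.810-fold, adjusted p = 0.00276). On replicate 4 it was -0.18, and -0.35 with spots of uneven background left out. ATMG00990 had 13.44, 13.66, 13.63 and 13.62 in the mVOC samples, against 13.91, 14.03, 13.76 and 13.88 in the control samples. These groups did not overlap, and the log2 ratio was -0.30 ± 0.15 (0.811-fold, adjusted p = 0.00468), with a mean of -0.42 on slide 1 and of -0.19 on slide 2.

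ATMG01370 had 10.99, 11.11, 10.99 and 11.07 in the mVOC samples, against 11.31, 11.36, 11.22 and 11.29 in the control samples. The log2 ratio was -0.26 ± 0.043 (0.837-fold, adjusted p = 0.00199), with no overlap of the groups. ATMG01000 had 12.61, 12.60, 12.56 and 12.55 in the mVOC samples, against 12.82, 12.76, 12.84 and 12.85 in the control samples. The groups were apart, and the log2 ratio was -0.24 ± 0.065 (0.845-fold, adjusted p = 0.00331). ATMG00830 had 11.57, 11.64, 11.47 and 11.65 in the mVOC samples, against 11.69, 11.77, 11.70 and 11.88 in the control samples. The groups were narrowly apart, and the log2 ratio of -0.18 ± 0.059 (0.884-fold, adjusted p = 0.0127) fell short of the threshold without replicate 4 (adjusted p = 0.0704). With arrays centred on the median, the log2 ratio was -0.014 for ATMG00990 (adjusted p = 0.899), -0.021 for ATMG01000 (adjusted p = 0.851), -0.097 for ATMG01370 (adjusted p = 0.324) and 0.0020 for ATMG00830.

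At ATMG01330, ATMG00040 and ATMG00890 the mean was further from 0 on slide 1 than on slide 2. ATMG01330 had 11.77, 11.88, 11.98 and 11.97 in the mVOC samples, against 12.11, 12.18, 12.05 and 12.07 in the control samples. The groups were apart, and the log2 ratio of -0.20 ± 0.14 (0.869-fold, adjusted p = 0.0243) had a mean of -0.32 on slide 1 and of -0.08 on slide 2. ATMG00040 had 8.26, 8.50, 8.47 and 8.45 in the mVOC samples, against 8.56, 8.77, 8.62 and 8.45 in the control samples. Its groups overlapped, and its log2 ratio of -0.18 ± 0.13 (0.881-fold, adjusted p = 0.0325) was -0.29 on slide 1 and -0.08 on slide 2. ATMG00890 had 6.81, 6.78, 6.87 and 7.02 in the mVOC samples, against 7.09, 6.96, 7.02 and 7.04 in the control samples. It was well above background on 3 of 4 arrays in each channel, its groups overlapped, and its log2 ratio of -0.16 ± 0.11 (0.896-fold, adjusted p = 0.0407) was -0.23 on slide 1 and -0.08 on slide 2. With spots of uneven background left out, ATMG00890 had -0.15 on replicate 3 and -0.14 on replicate 4. Its median net intensity was 15.5 in the mVOC channel and 36.5 in the control channel, below the offset of 50 added in the background correction, and the scanner software gave a log2 ratio of -0.57 (adjusted p = 0.0972), so the size of its fold is uncertain. For ATMG00040 the scanner software gave -0.34. With arrays centred on the median ATMG01330 had -0.011 (adjusted p = 0.922). On slide 2 alone none of these loci passed the threshold, with an adjusted p of 0.362 for ATMG01330, 0.40 for ATMG00040 and 0.378 for ATMG00890. Leaving out replicate 1 or replicate 2 also ended the call of each (adjusted p of 0.0784 to 0.188), as did leaving out replicate 3 for ATMG00040 (0.0593) and ATMG00890 (0.0813). The difference between slides was not itself tested. Over the 67 loci, slide 1 alone gave 4 higher (5.97%) and 10 lower (14.9%), against 5.96% and 5.02% of all loci. Slide 2 alone gave 4 higher (5.97%) and 7 lower (10.4%), against 8.02% and 6.12% of all loci. Slide means of opposite sign occurred at 21 of the 67 loci, 0 of them called.

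**Figure D2:**
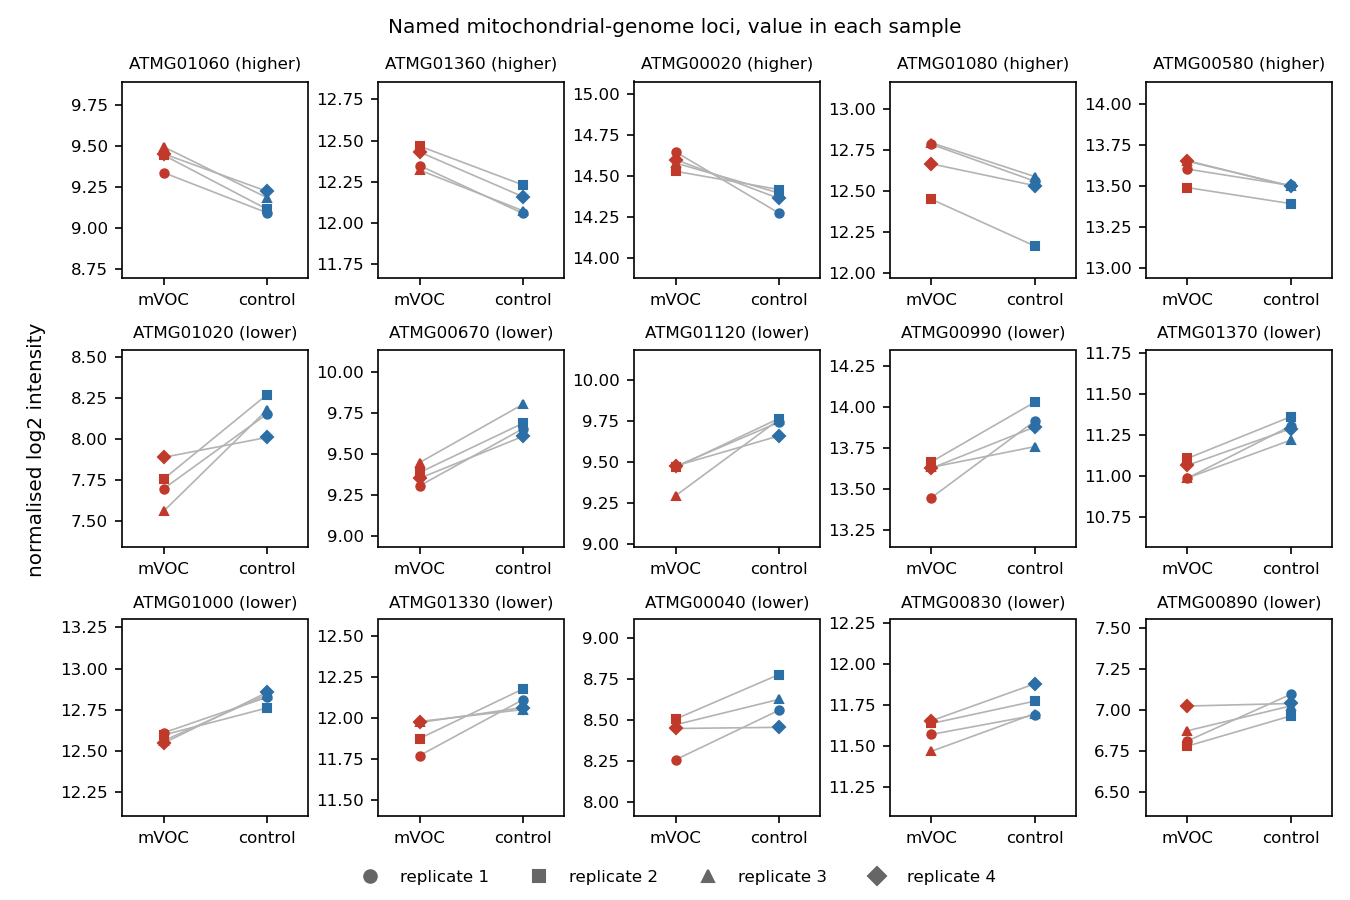
Normalised log2 intensity (y axis, 1.2 log2 units in every panel) of the 15 named mitochondrial-genome loci in the mVOC (left, red) and control (right, blue) samples. Symbols are replicates and grey lines join the samples of 1 array. The groups are apart in 11 panels and overlap in those of ATMG01080, ATMG00580, ATMG00040 and ATMG00890, while all lines of a panel slope one way.

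A locus was measured by 1 probe in 61 cases, by 2 in 5 and by 3 in 1, and the probes of a locus did not always move together. The call of ATMG00020 came mainly from 1 of its 3 probes, which had a log2 ratio of 0.45 ± 0.29 (adjusted p = 0.00239 over all probes), with 0.68, 0.03, 0.57 and 0.53 on replicates 1 to 4. The other two had means of 0.09 and 0.13 and did not pass the threshold. At ATMG00580, 1 probe had a mean of 0.23 ± 0.071 (adjusted p = 0.00406) and its partner 0.02 ± 0.048 (adjusted p = 0.766). The probes of ATMG00690 had opposite signs, at -0.32 ± 0.11 (adjusted p = 0.00104) and 0.06 ± 0.036 (adjusted p = 0.343). ATMG00060, which was not called as a locus, had 1 probe at -0.24 ± 0.16 (adjusted p = 0.0124) and another at -0.0019. Those of ATMG00090 had means of 0.09 and -0.13, and those of ATMG01040 of -0.02 and -0.10, none past the threshold. Probes of a locus also differed in intensity. The median net mVOC intensity was 372715, 209102 and 237 for the probes of ATMG00020, with 372715 at the probe that was called. It was 76393 and 2863 for those of ATMG00580, and 1291 and 18742 for those of ATMG00690, the called probe first. Values of these loci average such probes. Which RNA each probe binds cannot be read from the files.

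**Figure D3:**
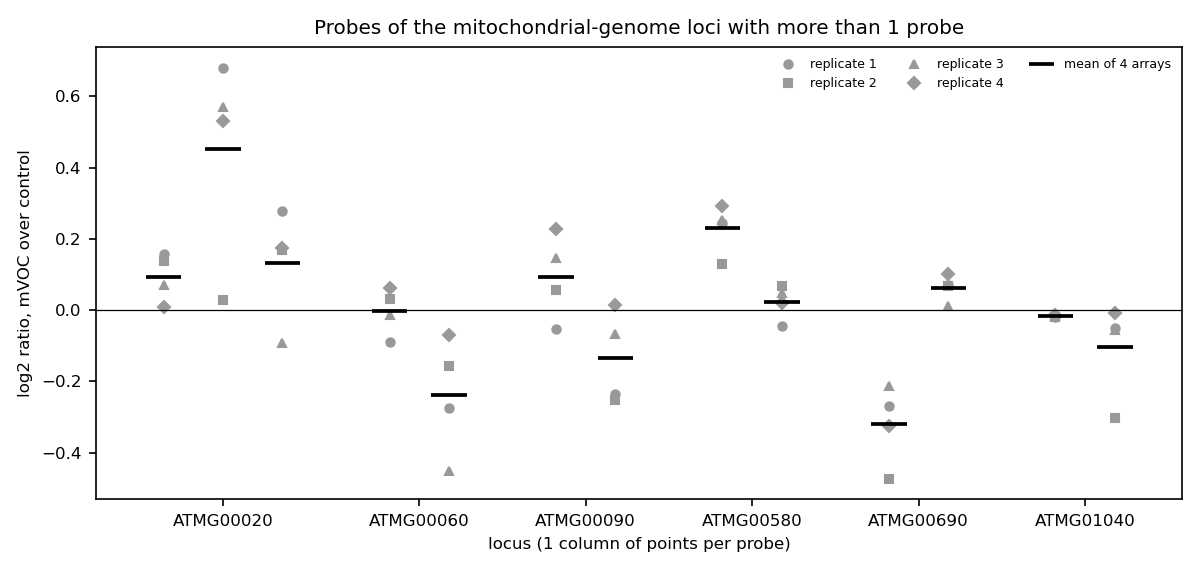
Log2 ratio of mVOC over control (y axis) for each probe of the 6 mitochondrial-genome loci with more than 1 probe (x axis, 1 column of points per probe). Grey symbols are the 4 arrays and black bars the means. At ATMG00690 the bars lie at -0.32 and 0.06, on opposite sides of 0.

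The other 50 loci did not pass the threshold. Of them 7 had an unadjusted p below 0.05, with mean log2 ratios between -0.12 and 0.13. ATMG01240, singled out after its values were seen, came closest (0.13 ± 0.084, adjusted p = 0.0551), with 7.96, 8.03, 7.94 and 7.87 in the mVOC samples, against 7.75, 7.85, 7.81 and 7.85 in the control samples. The groups were apart, and its ratio was 0.21 on replicate 1 and 0.02 on replicate 4. ATMG01390 and ATMG00280, also chosen after their values were seen and bright in both channels, gave log2 ratios of -0.0095 ± 0.13 and 0.0091 ± 0.038 (adjusted p = 0.918 and 0.894).

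The loci differed widely in the intensity of their spots. Well above background in all 8 readings were 57 loci, in some readings 6, and in none 4 (ATMG00680, ATMG00850, ATMG00880 and ATMG01400), for which no fold is given. These 4 were tested and are counted among the 67, and 0 of them were called. The median over loci of the net intensity was 295 in the mVOC channel and 262 in the control channel, before normalization. The highest, of ATMG00020, was 193605 in the mVOC channel and 88580 in the control channel. It is an average over 3 probes of very unlike intensity, so it gives no level of 1 RNA. When the loci were ordered by mean intensity, which depends on the probe as well as on the RNA, the dimmest 23 held 0 higher and 1 lower calls, the middle 22 held 1 and 5, and the brightest 22 held 4 and 6. Of all loci on the array 17.3% were called, and 23.9% once dim loci were left out. The share among all loci of like brightness was not computed, so the counts by band are not read as a trait of these loci. The median log2 ratio was -0.042, -0.081 and -0.00022 in the dim, middle and bright bands. Across the 67 loci the log2 ratio and the mean log2 intensity correlated with r = 0.097, a description over probes of the same libraries.

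The same fit gave the values of the groups of loci nearest to the mitochondrial genome. All 66 loci of the chloroplast genome were above background in all 8 readings. Their median net intensity was 34885 in the mVOC channel and 26039 in the control channel, against 295 and 262 for the mitochondrial loci. Shares called at like brightness were not compared. Of these 66 loci, 9 were higher (13.6%) and 23 lower (34.8%), against 9.33% and 7.96% of all loci. Together 48.5% were called, and the median log2 ratio was -0.097. That direction held after loess and not with arrays centred on the median, where 41 chloroplast loci were higher, 0 were lower and the median was 0.27, whereas the mitochondrial median stayed below 0, at -0.030. With the ratio of the scanner software the chloroplast split was 5 higher and 40 lower, against 15.3% of all loci in each direction. Of 86 loci in the stretch of chromosome 2 numbered AT2G07667 to AT2G07787, which holds the nuclear copy of the mitochondrial genome, 2 were higher and 17 lower (22.1%), with a median of -0.051, close to the mitochondrial -0.046. Centred on the median, 7 of these were higher and 23 lower. The other 28811 nuclear loci had 17.2% called and a median of 0.0032. Whether the groups differ was not tested, and signal of the mitochondrial genome and of its nuclear copy cannot be told apart here.

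**Figure D4:**
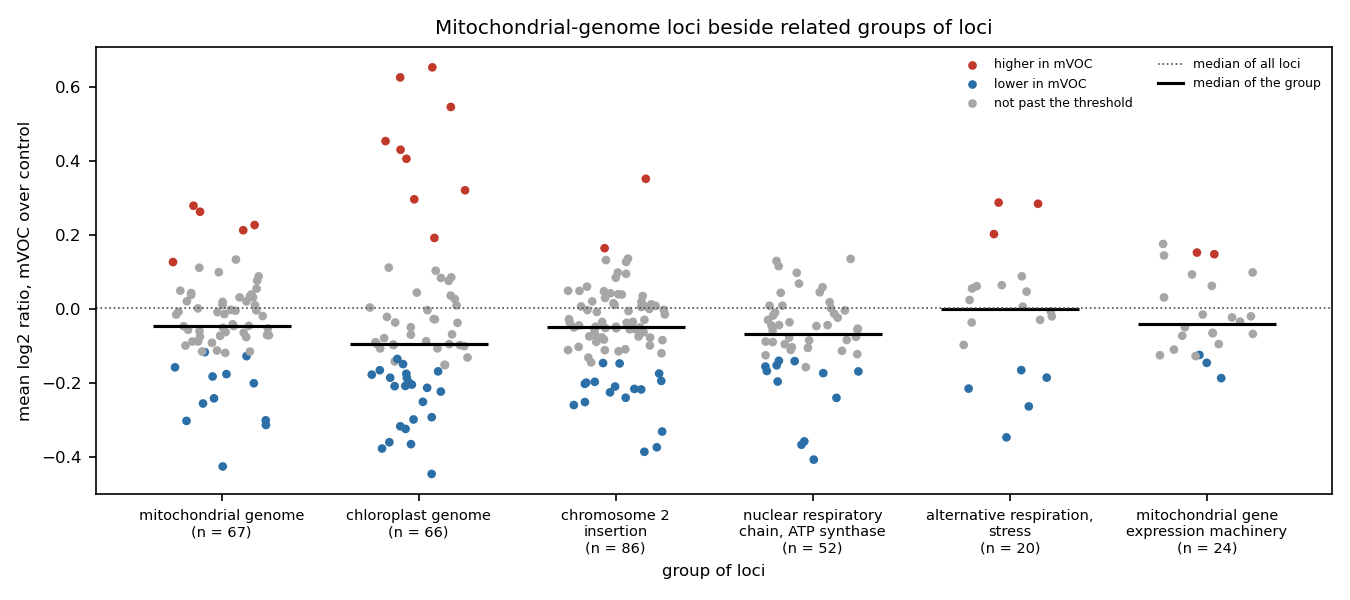
Mean log2 ratio of mVOC over control (y axis) of each locus in 6 groups (x axis, with n), coloured by call, with black bars for the medians and a dotted line at the median of all loci. The bars of the mitochondrial genome and of the chromosome 2 insertion lie at -0.046 and -0.051, and that of the chloroplast genome at -0.097.

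Nuclear genes of the respiratory chain and ATP synthase were mostly below 0 as well. All of these complexes but complex II also hold subunits encoded in the mitochondrial genome. Of 52 such genes 0 were higher and 12 were lower (23.1%), against 9.33% higher and 7.96% lower of all loci, with a median log2 ratio of -0.068, but centring on the median turned this to 21 higher and 1 lower, and the scanner software's ratio gave 3 higher and 26 lower. Of all loci, centring gave 20.7% higher and 21.3% lower, and the scanner software's ratio 15.3% in each direction. All 52 genes were above background in all 8 readings, whereas the shares of all loci include dim ones. With dim loci left out, 12.9% of all loci kept were higher and 11% lower. In complex I, the entry point for electrons from NADH, 0 of 16 genes were called. In complex II 1 of 5 was lower, SDH1-1, the flavoprotein of succinate dehydrogenase (-0.24 ± 0.14, adjusted p = 0.0114). Complex III with its electron carrier had 6 of 12 lower. Among these CYTC-2, a cytochrome c, had -0.37 ± 0.11 (adjusted p = 0.00102), AT5G25450, a small complex III subunit, -0.36 ± 0.097 (adjusted p = 0.000967), and AT1G51980 and MPPBETA, core subunits that also cleave import signals, had -0.17 each. In complex IV, which passes electrons to oxygen, 2 of 10 were lower, AT3G15640 at -0.17 and COX6B at -0.14. In ATP synthase 3 of 9 were lower, namely AT5G08670 (-0.41 ± 0.18, adjusted p = 0.00215) and AT5G08680 (-0.20), both for the beta subunit, and AT5G47030 (-0.15). Another beta subunit gene, AT5G08690, named after its values were seen, had -0.014 ± 0.085 and was not called (adjusted p = 0.856). The beta subunit genes are nearly identical, so their probes may share signal. Centred on the median, MPPBETA, AT3G15640, COX6B, AT5G08680 and AT5G47030 had ratios above 0, and SDH1-1, CYTC-2, AT1G51980 and AT5G08670 stayed below 0 but did not pass the threshold. The count of genes called lower was 4 without replicate 1, 8 without replicate 3 and 6 without replicate 4. Of all loci these fits called 4.06%, 5.09% and 5.23% lower.

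The alternative pathways of plant respiration, which bypass proton pumping, were divided. Of 20 genes of these pathways and of mitochondrial stress, 3 were higher (15.0%) and 5 lower (25.0%), against 9.33% and 7.96% of all loci (median -0.00096). AOX1A, the main alternative oxidase, was lower (-0.35 ± 0.073, adjusted p = 0.000757), while the alternative NAD(P)H dehydrogenases NDA1 (0.29 ± 0.093, adjusted p = 0.00235) and NDB1 (0.28 ± 0.066, adjusted p = 0.00168) were higher. The third gene called higher, named after its values were seen, was AOX1D, another alternative oxidase (0.20 ± 0.11, adjusted p = 0.0162), so the oxidases did not share a direction. AT5G51440, a small heat shock protein of mitochondria, was lower (-0.26 ± 0.12, adjusted p = 0.00544). Of 24 genes that transcribe, process or maintain the mitochondrial genome, 2 were higher (8.33%) and 3 lower (12.5%), near the 9.33% and 7.96% of all loci (median -0.043), and in the deposited value table of replicates 2 to 4 the split was 4 higher and 1 lower. Of all loci the value table gave 7.45% higher and 7.74% lower. MGP3, a phage-type RNA polymerase of mitochondria, had -0.19 ± 0.11 (adjusted p = 0.0211) and PMH1, an RNA helicase, -0.15 ± 0.079 (adjusted p = 0.036). RUG3, needed for splicing of a complex I transcript, had 0.15 ± 0.080 (adjusted p = 0.0321), and MSH1, which limits recombination in organelle genomes, 0.15 ± 0.075 (adjusted p = 0.0336). AOX1A (-0.18), AT5G51440 (-0.14) and PMH1 (-0.043) did not pass the threshold with arrays centred on the median. The expression genes held 5 calls in all, and without replicate 1 they held 0 higher and 1 lower, against 4.73% and 4.06% of all loci.

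Between processing settings, the number of mitochondrial loci called varied, between 0 and 32 of 67. All 17 remained with spots of uneven background left out and with slide as a fixed block, whereas 0 passed under normexp without its offset (21 at an unadjusted p below 0.05) and under an ordinary test without limma's shared variance (15 at an unadjusted p below 0.05). Of all loci, normexp without its offset called 0.00344% and the ordinary test 0.0586%, so calls were lost over the whole array.

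**Figure D5:**
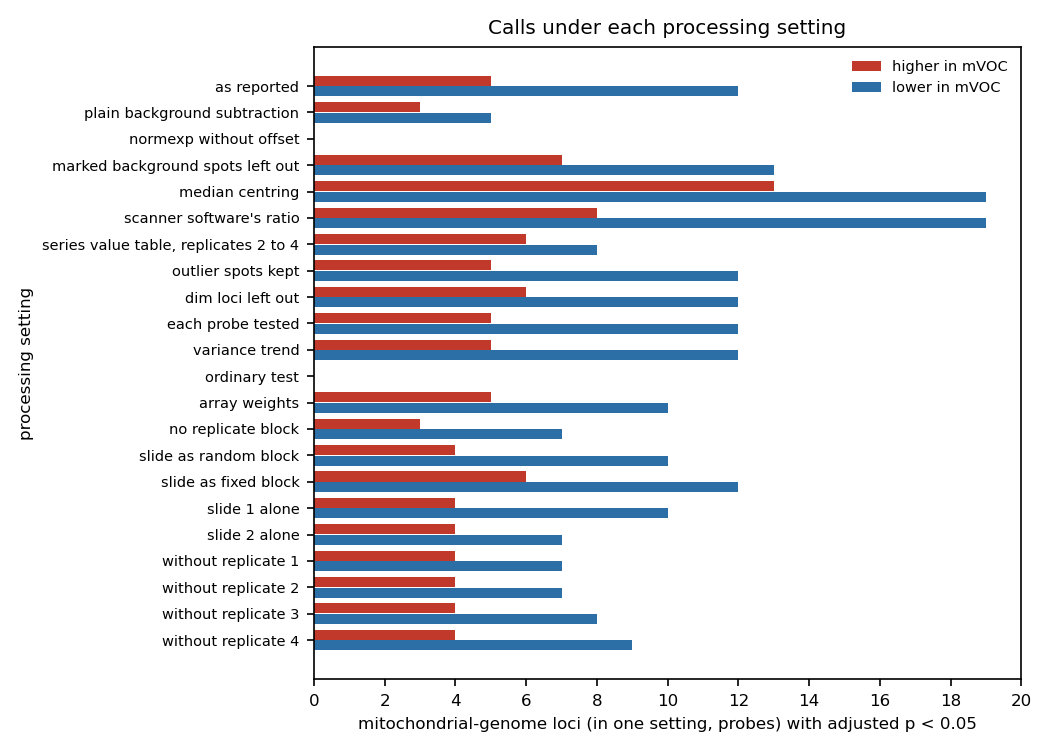
Number of mitochondrial-genome loci (x axis, probes in the setting where each probe was tested) with an adjusted p below 0.05 under each processing setting (y axis), red for higher and blue for lower in mVOC. The reported setting has 5 and 12, and the counts run from 0 in 2 settings to 13 and 19 with arrays centred on the median.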

How the data were processed

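RNA of 4 mVOC-exposed and 4 control samples was measured on 4 two-colour arrays. The authors deposited the output of Agilent Feature Extraction (version 11.5.1.1 per the file headers), holding per spot a median intensity and a median background intensity on a linear scale, not normalised, and a log10 ratio of Cy5 over Cy3 that the scanner software had corrected for background and dye. Well-above-background, saturation and outlier marks, which are neither intensities nor ratios, were also deposited. A deposited table of the series repeats the log10 ratio for replicates 2 to 4. Its column of replicate 1 holds the error of the ratio, and this 1 column was not used. The labels describe reverse transcription from an oligo(dT)-type primer and the methods describe amplified cRNA, which was not settled.

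Using limma (version 3.58.1, under R 4.3.3), intensities were corrected by normexp (offset 50, all spots) and normalised by loess without weight for control or outlier spots, which were left out. Probes were averaged per locus. The files give a locus for 38413 probes and none for 5190. The 4 log2 ratios of a locus entered lmFit with an intercept alone, followed by eBayes, with Benjamini-Hochberg adjustment over 29030 loci and a threshold of 0.05. Values per sample are log2 intensities after loess and Aquantile. The steps were tested on simulated data without a dye or slide effect, in which 100 loci changed by a log2 ratio of 0.5 and 100 by 1. Of these 74% and 96% were called, with median fitted sizes of 0.416 and 0.80, and 1.16% of calls fell on unchanged loci. The mitochondrial means lay between -0.43 and 0.28, so detection at the reported sizes was not tested. The arrays give no counts, and the 4 arrays limit the precision. The mVOC and control samples of 1 array were hybridised together, so the array pairs them by design. Their deviations from the group means correlated with r of 0.437, 0.510, 0.247 and 0.363, against -0.355 to 0.110 between arrays. Both channels of an array share the mean intensity of each spot, and deviations from a group mean sum to 0. These correlations therefore do not test the pairing.

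The rule for the mitochondrial loci used their names alone, but it and the lists were set with earlier results of these data known. As no table annotates them, all mitochondrial loci were named by 1 rule: up to 10 loci with the largest rise and 10 with the largest fall among those called and of 1 direction on all arrays, and up to 4 genes of each nuclear list. The lists hold 106 genes, of which 106 matched RefSeq, and 0 of the 67 mitochondrial loci did. Alternatives covered background correction, offset, marked spots, centring, the scanner's and the table's ratios, outlier and dim spots, the unit tested, the variance model, array weights, pairing, slide and each replicate left out.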

Additional observations from a re-analysis of the deposited data

Results flagged for a closer look

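In the groups of 4 ratios tested for 1 array far from the others (34 tested, of which chance marks about 1 in 20), 2 nuclear genes and 0 mitochondrial loci were marked. CYTC-2 (AT4G10040) had a log2 ratio of -0.53 on replicate 3, while the other arrays gave -0.33, -0.30 and -0.32. AT5G25450 had -0.21 on replicate 4, while the other arrays gave -0.40, -0.42 and -0.40. Replicate 4 is the array with the smallest spread of ratios over all loci (SD 0.103), and the part of this in its value was not tested.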

How the results depend on the processing

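The reported counts were 5 higher and 12 lower for the mitochondrial loci, 9 and 23 for the chloroplast loci, 2 and 17 for the chromosome 2 insertion, 0 and 12 for the nuclear respiratory genes, 3 and 5 for alternative respiration and stress, and 2 and 3 for the expression genes, and counts that moved by over 1.5 times follow in this order. Their causes were not tested. Plain background subtraction gave 3 higher and 5 lower mitochondrial loci (median log2 ratio -0.020), 8 lower chloroplast loci, 1 higher and 8 lower insertion loci, 2 lower respiratory genes, 2 lower alternative genes, and 0 expression genes in either direction. It called 4.85% of all loci higher and 3.19% lower. Normexp without its offset and the ordinary test each gave 0 calls in either direction in all 6 groups under Benjamini-Hochberg adjustment, with 21 and 15 mitochondrial loci at an unadjusted p below 0.05. They called 0.00344% and 0.0586% of all loci, so the loss was one of the whole array. Median centring gave 13 higher and 19 lower mitochondrial loci, 41 higher and 0 lower chloroplast loci (median 0.27), 7 higher insertion loci (median -0.090), 21 higher and 1 lower respiratory genes, and 4 higher expression genes. It called 20.7% of all loci higher and 21.3% lower. The scanner software's ratio gave 8 and 19 mitochondrial loci (median -0.11), 5 and 40 chloroplast loci, 28 lower insertion loci, 3 and 26 respiratory genes, and 4 and 8 expression genes. It called 15.3% of all loci in each direction. The value table of replicates 2 to 4 gave a mitochondrial median of -0.10, 4 higher chloroplast loci, 1 higher respiratory gene, and 4 and 1 expression genes. It called 7.45% of all loci higher and 7.74% lower. Without the replicate block, that is with the channels unpaired, 3 and 7 mitochondrial loci, 14 lower chloroplast loci, 1 higher insertion locus, 6 lower respiratory genes, 3 lower alternative genes, and 0 higher and 1 lower expression genes were called. This unpaired fit called 5.06% of all loci higher and 4.11% lower.

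Tested probe by probe, the mitochondrial median was -0.017, and 4 and 26 respiratory and 5 and 8 alternative probes were called. Of all probes, 9.62% were higher and 8.58% lower. Respiratory genes called higher numbered 2 with spots of uneven background left out, with dim loci left out or with slide as a fixed block, and 1 with array weights, which also gave 1 higher insertion locus. In that order, these settings called 11.7%, 12.9%, 12.6% and 9.48% of all loci tested higher. Leaving out the uneven spots gave 5 lower expression genes, with 10.9% of all loci lower. Slide 1 alone gave 14 lower chloroplast loci, 2 and 7 respiratory genes and 1 lower expression gene, against 5.96% higher and 5.02% lower of all loci. Slide 2 alone gave 7 lower mitochondrial loci, 1 and 9 insertion loci, 3 higher respiratory genes and 3 lower alternative genes. It called 8.02% of all loci higher and 6.12% lower. Leaving out each replicate in turn gave 4 higher and 7 to 9 lower mitochondrial loci (median -0.054 to -0.031), with 7 lower without replicate 1 or 2. It gave 4.73% to 7.37% higher and 4.06% to 5.98% lower of all loci. It gave 8 to 9 higher and 14 to 22 lower chloroplast loci (median -0.11 to -0.082), with 14 without replicate 4. It gave 1 to 2 higher and 9 to 16 lower insertion loci (median -0.066 to -0.037), with 9 without replicate 1. The respiratory genes had 0 to 1 higher and 4 to 9 lower, with 4 without replicate 1, 8 without replicate 3 and 6 without replicate 4. The alternative genes had 2 to 3 higher and 3 to 4 lower, and the expression genes 0 to 2 higher and 0 to 1 lower, with 0 higher without replicates 1 or 4. Signs turned only under median centring among the settings tried, for ATMG00830 (0.0020), MPPBETA (AT3G02090, 0.0086), AT3G15640 (0.022), COX6B (AT1G22450, 0.10), AT5G08680 (0.14) and AT5G47030 (0.18). Of the 15 named mitochondrial loci, ATMG00580, ATMG00890 and ATMG00040 lost their call most often. Dim spots limit what could be seen, since 4 loci were above background in no reading.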
